A study of Mus musculus with 10 samples.

Results

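The circadian clock genes described here are Per1, Per2, Per3, Dbp, Nr1d1, Nr1d2, Ciart, Bhlhe41, Arntl and Cry1, 10 genes taken by symbol from the 53447 Ensembl genes listed in each library. RNA was prepared from the cerebella of 5 WT mice, labelled Control, and 5 Dscam del17/del17 mice, labelled DscamKO, all at postnatal day 21 (P21) and of the labelled strain BALB/c, the del17 mice having been bred by crosses to BALB/cCrSlc mice, with 1 library per mouse. The mutants are homozygous in every cell for a spontaneous loss-of-function deletion in Dscam, which encodes a cell adhesion molecule, and the WT mice were littermates. Both sexes were used and the animals were kept on a light/dark cycle. Neither the labels nor the methods give the sex of each mouse or the hour at which the tissue was taken. The question was whether the genes of the positive and the negative limb of the clock moved between the genotypes as a shift in the time of day would move them. Levels are in TPM (transcript abundance scaled to the total of each library, already divided by transcript length). Levels of different genes can thus be set side by side. The listed genes did not reach an equal sum in every library. It was 684771 TPM in WT replicate 5, 757307 TPM in WT replicate 3 and 775148 to 838532 TPM in the other libraries.

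The clock is a transcriptional feedback loop that runs in nearly every cell, the cells of the cerebellum included. ARNTL (also called BMAL1), paired with CLOCK or NPAS2, binds E-box sequences and switches on the Per and Cry genes, whose protein products return to block their own activator. In a second loop the REV-ERB receptors, products of Nr1d1 and Nr1d2, repress Arntl through the RRE element, so that Arntl peaks when Nr1d1 and Dbp are at their lowest. Dbp encodes a PAR bZIP activator that binds D-box sequences and is among the output genes with the deepest daily rhythm. Per1, Per2, Per3, Dbp, Nr1d1, Nr1d2, Ciart and Bhlhe41 are called day-phase here, since they rise in the light phase or around dusk in nocturnal rodents, and Arntl and Cry1, which rise later, are called night-phase. A change in the hour of sampling would be expected to move Arntl against Dbp and Nr1d1, and genes with different peak times by different amounts.

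The control sequences of the loop were looked for in the RefSeq promoter windows on GRCm38.p6, each running from 250 bases before to 50 bases after an annotated start, and are shown because the loops act on their genes through such elements. Both strands were searched for the E-box CACGTG, the E-box-like CACGTT, the D-box TTATGTAA, the RRE core TAGGTCA and the CRE TGACGTCA. None of these letter strings overlap one another where they were found. The table held 11 windows for 9 of the 10 genes, with no entry for Per2. In the sequences that follow, 5′ to 3′ on the strand of the gene, capitals mark the match, and AACGTG is the E-box-like motif read on the other strand.
Per1 E-box, chr11:69098771-69098800, + strand: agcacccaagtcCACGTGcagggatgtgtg
Per3 pair of D-boxes, chr4:151044804-151044882, - strand: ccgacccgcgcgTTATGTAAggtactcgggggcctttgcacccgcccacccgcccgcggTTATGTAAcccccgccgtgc
Nr1d1 E-box-like, chr11:98775388-98775417, - strand: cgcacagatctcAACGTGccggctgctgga
Ciart E-boxes, chr3:95882255-95882356, - strand: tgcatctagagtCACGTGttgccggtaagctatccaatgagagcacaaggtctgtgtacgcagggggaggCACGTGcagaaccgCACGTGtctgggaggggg
Bhlhe41 E-box, chr6:145865556-145865585, - strand: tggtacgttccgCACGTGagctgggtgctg
Arntl RRE core, chr7:113207531-113207557, + strand: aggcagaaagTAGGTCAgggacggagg
Cry1 E-box-like and E-box, chr10:85185097-85185145, - strand: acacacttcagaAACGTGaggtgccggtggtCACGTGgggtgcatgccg

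The E-box lay 166 bases before the first of the Per1 starts, 153 bases before the Bhlhe41 start and 60 bases before the Cry1 start. Ciart held 3 copies, at 116, 58 and 44 bases before its start. The Per3 D-boxes lay 205 and 158 bases upstream. The Arntl RRE core began downstream, at base 31 counting from the second Arntl start with the start base included. No match was found in the Dbp and Nr1d2 windows. Of the 32851 windows in the table, 7.15% held the E-box, 4.68% the E-box-like motif, 0.938% the D-box, 2.61% the RRE core and 1.79% the CRE, which no member window held.

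**Figure D1:**
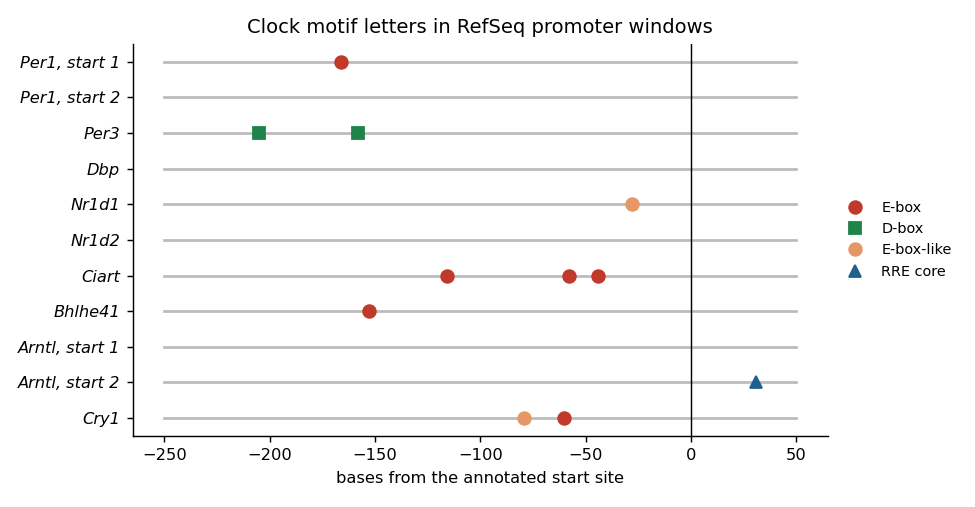
Position of each motif match (symbols) in the 11 promoter windows of 9 clock genes (rows), in bases from the annotated start site, with E-box, E-box-like, D-box and RRE core matches drawn separately. Ciart carries 3 E-boxes within 116 bases of its start, and the RRE core in Arntl is the match that lies downstream of a start.

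All 10 clock genes were well above the filter for testing (0.5 TPM or more in 5 or more libraries), the lowest single value being 7.96 TPM for Arntl in WT replicate 5. Over the 10 libraries Dbp had the highest level, 123 TPM on average, followed by Nr1d1 (97.8 TPM), Per1 (69.1 TPM) and Nr1d2 (48.8 TPM). Cry1 (28.3 TPM), Arntl (20.9 TPM), Ciart (19.3 TPM), Per2 (19.1 TPM), Bhlhe41 (18.0 TPM) and Per3 (12.9 TPM) followed. The ranges of every pair of neighbours in this order overlapped over the libraries. Within a library, however, Dbp was above Nr1d1 in 10 of 10 libraries and Nr1d2 was above Cry1 in 10 of 10, while Ciart was above Per2 in only 4 of 10. Over the 10 libraries the coefficient of variation was highest for Arntl (31.9%) and lowest for Nr1d1 (12.9%). For Arntl it was 43.6% among WT and 15.9% among mutant mice, where Per3 had the highest (22.0%) and Bhlhe41 the lowest (10.8%). Without WT replicate 5 Arntl was at 23.1% and Per2 was highest, at 28.4%, and Per2 was also highest without WT replicate 1, at 30.2%.

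No clock gene passed the threshold between the genotypes. In the limma fit over 17168 genes, 0 of the 10 members had an adjusted p under 0.05, against a background of 0% of all genes tested. At an unadjusted p under 0.05, 2 of the 10 members, Per2 and Bhlhe41, were called higher in the mutants and none lower, against 2.29% of all genes called higher and 3.26% called lower, 5.55% in all. Fold changes are given as mutant minus WT on the log2(TPM + 0.1) scale. They lay above 0 for 7 members and below 0 for 3, with a median of 0.12, against a median of 0.05 and 56.0% of genes above 0 over all genes tested. In no member were the libraries of the genotypes fully separated, a separation seen in 0.419% of all genes with the mutants higher and 0.798% with the mutants lower. Since the tissue was sequenced in bulk, fewer cells of a type and less RNA per cell cannot be told apart.

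**Figure D2:**
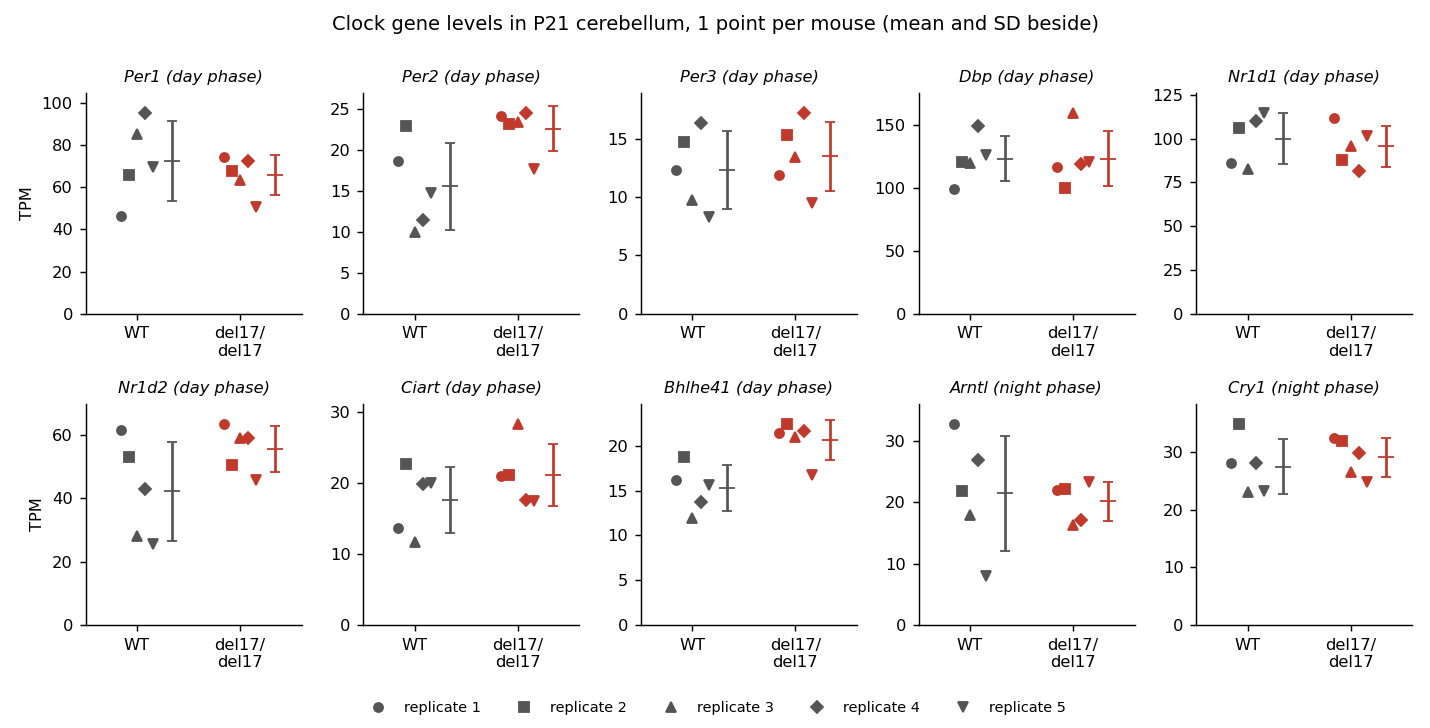
Level in TPM of each of the 10 clock genes in the 5 WT (grey) and 5 Dscam del17/del17 (red) libraries, 1 point per mouse with a symbol for its replicate number, and the mean with its SD beside the points. The genotypes overlap in every panel, and for Per2 and Bhlhe41 4 of the 5 mutant points lie above the highest WT point.

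Per2 (ENSMUSG00000055866, GRCm38 chr1:91415982-91459324, - strand) encodes a repressor of the PER and CRY complex and is responsive to light and to hormones. The WT replicates 1 to 5 had 18.6, 22.9, 10.03, 11.4 and 14.8 TPM, with a mean of 15.6 ± 5.29 (SD, n = 5). The mutant replicates 1 to 5 had 24.1, 23.2, 23.4, 24.5 and 17.7 TPM, with a mean of 22.6 ± 2.77 (SD, n = 5). Thus 4 of 5 mutants stood above the highest WT mouse, and mutant replicate 5 stood within the WT range. The log2 fold change was 0.59 (SE 0.22, 95% interval 0.11 to 1.08), and the adjusted p of limma over all genes was 0.779. The exact two-sided permutation test of the TPM alone gave p = 0.040, with 0.0079 as the smallest value that 5 against 5 mice can give. Xist, an RNA made in female mice, was at 65.6 TPM in mutant replicate 5 and 88.3 TPM in WT replicate 1. In the other libraries it was at 0.0865 TPM or less. With the Xist level as a covariate the log2 fold change was 0.593 for Per2 and 0.442 for Bhlhe41, neither past the threshold. Whether sex had a part in the level of mutant replicate 5 was not tested.

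Bhlhe41 (also called Dec2, ENSMUSG00000030256, chr6:145858243-145865558, - strand) encodes an E-box repressor that competes with the activators. The WT replicates 1 to 5 had 16.2, 18.7, 11.9, 13.8 and 15.6 TPM (mean 15.3 ± 2.58, SD, n = 5), and the mutant replicates 21.5, 22.4, 21.04, 21.6 and 16.8 TPM (mean 20.7 ± 2.24, SD, n = 5). As for Per2, 4 of the 5 mutants stood above every WT mouse and mutant replicate 5 did not. The log2 fold change was 0.44 (SE 0.16, 95% interval 0.10 to 0.79), with an adjusted p of 0.779 by limma and p = 0.016 in the exact permutation test. An unclassified transcript on the other strand, Gm43909, at a mean of 1.24 TPM, shares 1280 bases with Bhlhe41, 19.0% of its exonic length, and the strand setting used in quantification is not given in the sources used here.

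Neither of the other PER genes was called at an unadjusted p under 0.05, and whether their fold changes differ from that of Per2 was not tested. Per1 (ENSMUSG00000020893, chr11:69095217-69109960, + strand), a PER gene that responds quickly to light and to neuronal activity, had 46.3, 65.8, 85.4, 95.1 and 69.8 TPM in WT replicates 1 to 5 and 74.4, 67.6, 63.3, 72.4 and 50.6 TPM in the mutants. The highest and the lowest values were both in WT mice, and the log2 fold change was -0.11 (95% interval -0.52 to 0.29, limma adjusted p = 0.887). Per3 (ENSMUSG00000028957, chr4:151003652-151044665, - strand), a PER protein that is dispensable for the core loop, ranged from 8.31 to 16.4 TPM in WT and from 9.52 to 17.2 TPM in mutant mice. Its log2 fold change was 0.15 (95% interval -0.36 to 0.65, limma adjusted p = 0.885), and it was 0.02 without WT replicate 5. Per3 lies within Camta1 on the same strand, with 0 exonic bases shared. On the log2 scale Per2 minus Per1 was -2.25 ± 0.83 in WT and -1.54 ± 0.07 in mutant mice (SD, n = 5 each), so that the ratio varied widely between WT mice, from -3.09 to -1.32, and little between mutants, from -1.63 to -1.44.

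Dbp (ENSMUSG00000059824, chr7:45705088-45710203, + strand), whose rhythm is deep in most tissues, was at the same mean level in both genotypes. WT replicates 1 to 5 had 99.4, 120.2, 120.0, 149.2 and 126.3 TPM (mean 123.0 ± 17.9, SD, n = 5), and the mutants had 116.5, 100.05, 159.4, 119.2 and 120.9 TPM (mean 123.2 ± 21.9, SD, n = 5). Mutant replicate 3 was above every WT mouse and the other mutants lay within the WT range, and the log2 fold change was 0.00 with a 95% interval of -0.30 to 0.30 (limma adjusted p = 0.997). Sphk2 on the other strand shares 539 exonic bases, 18.0% of the exonic length of Dbp, at a mean of 21.2 TPM.

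Nr1d1 (REV-ERBα, ENSMUSG00000020889, chr11:98767932-98775333, - strand), the main repressor of Arntl, had 86.3, 106.1, 82.6, 110.0 and 114.6 TPM in WT replicates 1 to 5 and 111.6, 87.7, 95.6, 81.8 and 101.4 TPM in the mutants. The ranges nearly coincided, and the log2 fold change was -0.06 (95% interval -0.33 to 0.21, limma adjusted p = 0.916). Thra on the other strand shares 263 bases, 8.55% of the exonic length of Nr1d1, and is at a mean of 239.9 TPM. Nr1d2 (REV-ERBβ, ENSMUSG00000021775, chr14:18204054-18239127, - strand), its paralogue with the same peak time, had 61.4, 52.9, 27.9, 42.8 and 25.5 TPM in WT and 63.2, 50.4, 58.9, 59.0 and 45.6 TPM in mutant replicates 1 to 5. WT replicates 3 and 5 were the low libraries, and the other WT values lay in or near the mutant range. The log2 fold change of 0.47 had a 95% interval of -0.04 to 0.98 (limma adjusted p = 0.779), the exact permutation p was 0.13, and without WT replicate 5 the fold change was 0.31. On the log2 scale Nr1d2 minus Nr1d1 was -1.32 ± 0.63 in WT and -0.79 ± 0.25 in mutant mice (SD, n = 5 each), with overlapping ranges.

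Ciart (also called Chrono, ENSMUSG00000038550, chr3:95878503-95882251, - strand), an E-box repressor that binds ARNTL, ranged from 11.7 to 22.6 TPM in WT and from 17.5 to 28.3 TPM in mutant mice. WT replicates 1 and 3 were below every mutant and mutant replicate 3 was above every WT mouse, with a log2 fold change of 0.28 (95% interval -0.18 to 0.75, limma adjusted p = 0.785), which was 0.15 without WT replicate 3. The antisense gene C920021L13Rik spans the locus and shares 0 exonic bases with Ciart.

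Of the night-phase genes, Arntl (ENSMUSG00000055116, chr7:113207465-113314126, + strand) encodes the activator of the loop. WT replicates 1 to 5 had 32.8, 21.8, 18.0, 26.9 and 7.96 TPM (mean 21.5 ± 9.38, SD, n = 5), and the mutants had 22.0, 22.1, 16.4, 17.1 and 23.4 TPM (mean 20.2 ± 3.21, SD, n = 5). The mutants lay inside the WT range, with 2 WT mice above the highest mutant and WT replicate 5 below the lowest. The log2 fold change was 0.04 with a wide 95% interval, -0.66 to 0.74 (limma adjusted p = 0.976), and without WT replicate 5 it was -0.28. The antisense gene Gm45355 shares 33 exonic bases with Arntl and is listed at 0 in all libraries. Cry1 (ENSMUSG00000020038, chr10:85131700-85185064, - strand), a repressor that partners the PER proteins and peaks late through combined E-box, D-box and RRE input, ranged from 23.0 to 34.9 TPM in WT and from 24.8 to 32.6 TPM in mutant mice. Its log2 fold change was 0.09 (95% interval -0.23 to 0.41, limma adjusted p = 0.887), and it was 0.03 without WT replicate 3.

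The day-phase genes were set against the night-phase genes by values alone, without a test, and these values turned on single libraries. Of the 8 day-phase members, 5 had a log2 fold change above 0, with a median of 0.22, which was 0.11 without WT replicate 3. Both night-phase members were above 0 as well, with a median of 0.07, although the mean TPM of Arntl was lower in the mutants. Without WT replicate 5, 6 day-phase members and 1 night-phase member were above 0, with medians of 0.16 and -0.12. The same opposite signs came with array weights (0.16 and -0.12) and without WT replicates 3 and 5 together (0.05 and -0.24). With the summed mitochondrial mRNA level as a covariate the night-phase median was -0.25, both members below 0, and the day-phase median was 0.06, while the median of all genes tested moved from 0.05 to -0.10. Within each library, where scaling cancels, the mean log2 level of the day-phase members minus that of the night-phase members was 0.10, 0.53, 0.43, 0.42 and 1.21 in WT replicates 1 to 5 and 0.61, 0.54, 1.02, 0.83 and 0.46 in the mutants. The WT mean was 0.54 ± 0.41 and the mutant mean 0.69 ± 0.23 (SD, n = 5 each). The mutant values all lay between the WT extremes, and the difference of 0.16 was smaller than either SD. This rested on WT replicate 5, the highest library. Without it the WT mean was 0.37 ± 0.19 (SD, n = 4), the difference was 0.32, and 4 of the 5 mutants stood above every remaining WT mouse. Without WT replicate 1, the lowest library and the WT library with a high Xist level, the difference was 0.05. Without mutant replicate 3, the highest of the mutants, the difference was 0.07.

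The ratio of Dbp to Arntl, genes with nearly opposite peaks, was 2.65 ± 0.86 on the log2 scale in WT and 2.61 ± 0.44 in mutant mice (SD, n = 5 each). The ratio of Nr1d1 to Arntl was 2.35 ± 0.91 and 2.25 ± 0.21. In both ratios WT replicate 1, with the highest Arntl, was the lowest library, and WT replicate 5, with the lowest Arntl, was the highest. The spread between WT mice in these ratios, from 1.601 to 3.99 for Dbp over Arntl, thus exceeded the difference between the genotype means. Without WT replicate 5 the direction turned, the WT mean being 2.32 ± 0.49 for Dbp over Arntl and 1.98 ± 0.40 for Nr1d1 over Arntl (SD, n = 4), with 2 of the 5 mutants above every remaining WT mouse in each.

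**Figure D3:**
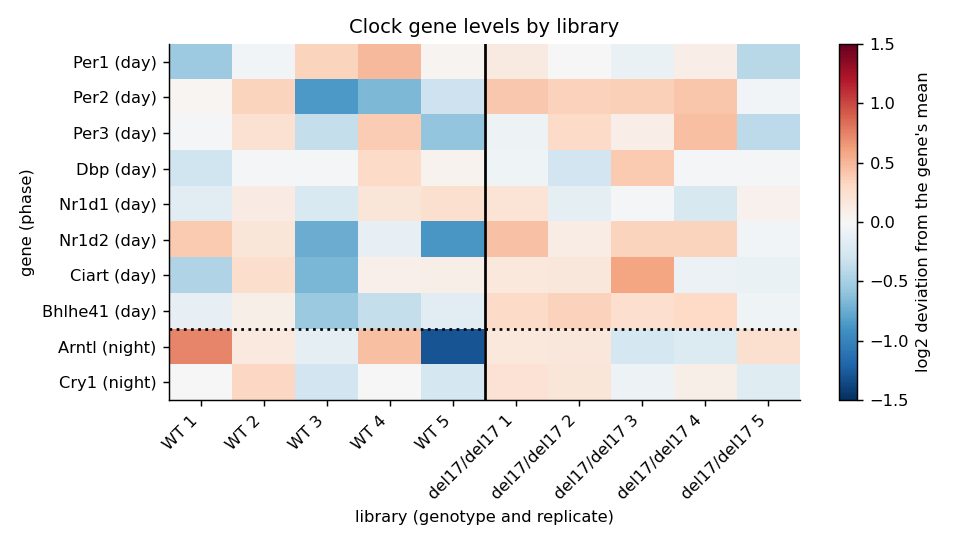
Log2 deviation of each clock gene (rows, day-phase above and night-phase below the dotted line) from its mean over the 10 libraries (columns, WT left and Dscam del17/del17 right of the black line), red above and blue below the mean. WT replicate 3 was above the mean in 1 of 10 genes WT replicates 1 and 5 in 4 of 10 and mutant replicate 5 in 2 of 10, while Arntl in WT replicate 5 gives the lowest cell.

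Between mice, only 1 pair of clock genes was correlated past the threshold in the TPM as deposited. Correlations of log2 levels over the 10 libraries were computed for all 45 pairs of members, with Benjamini-Hochberg adjustment over the 45. Only Per2 with Bhlhe41 passed, with Pearson's r = 0.965 (permutation p = 3e-05, adjusted 0.0014) and Spearman's rho = 0.915 (permutation p = 0.00048, adjusted 0.022). It was 0.915 without WT replicates 3 and 4, the libraries farthest from the median of Per2, and 0.947 once the genotype means were removed, so that it did not rest on the difference between the genotypes. With median-of-ratios scaling it was 0.937. Among all other genes tested 0.0% had a higher r with Per2 than Bhlhe41 had, and their median r was 0.12. Per2 and Bhlhe41, both at their lowest in WT replicate 3, thus moved as a pair, while no other pair, Per1 and Ciart included, passed.

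In the TPM as deposited, Dbp was not correlated with any other member past the threshold. The highest of its 9 relations were with Ciart (r = 0.496, rho = 0.309), Per1 (r = 0.429, rho = 0.139) and Nr1d1 (r = 0.401, rho = 0.430), and with Arntl r was -0.29 (rho = -0.41). The lowest permutation p was 0.14 for r, with Ciart, and 0.13 for rho, with the day-phase Nr1d2 (rho = -0.515, r = -0.14). These gave adjusted values over the 9 relations of 0.75 and 0.50. Leaving out WT replicate 4 and mutant replicate 3, the libraries farthest from the median of Dbp, took Ciart to r = 0.129, Nr1d1 to 0.475 and Arntl to -0.66. The values also depended on scaling. With median-of-ratios scaling, for which no p was computed, r of Dbp was -0.69 with Arntl and -0.44 with Nr1d2. It was 0.64 with Nr1d1, 0.62 with Per1, 0.58 with Ciart and -0.18 to 0.02 with Per2, Per3, Bhlhe41 and Cry1. For Nr1d1 with Arntl r was -0.24 without and -0.67 with this scaling. With this scaling r of Arntl was also -0.58 with Ciart, -0.51 with Per1, -0.45 with Bhlhe41 and -0.26 with Per2. With the day-phase Nr1d2 and Per3 r of Arntl was 0.36 and 0.10, and with the night-phase Cry1 -0.24. Among 12798 other protein-coding genes averaging 1 TPM or more, Tmem80 (r = 0.917), Catip (0.889), Syt6 (0.859), Ppp1r16a (0.854) and Pdia5 (0.846) were most like Dbp over the 10 libraries, and Nog (-0.94), Actr5 (-0.92), Trub1 (-0.89), Zswim3 (-0.88) and Gm13889 (-0.86) least like it. No clock gene is among either set of 5.

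Nr1d2 tracked the mitochondrially encoded mRNAs, whose 13 genes together made up between 15210 and 44670 TPM of a WT library and between 34720 and 44970 TPM of a mutant library. WT replicates 5 and 3 had the smallest sums, and these are the libraries in which Nr1d2 was lowest. Over the 10 libraries r was 0.962 and rho 0.952, with permutation p = 1e-05, the smallest that 100000 resamples can give, and 0.00013, or 0.0001 and 0.0013 after adjustment over the 10 members. Leaving out WT replicates 3 and 5 gave r = 0.928, and removing the genotype means gave 0.950. Many genes followed this sum, with 7.47% of all genes tested above r = 0.9, but only 1.35% had a higher r than Nr1d2. Both quantities are shares of the same library, and the relation was not computed again with median-of-ratios scaling. The factors of that scaling were 0.816 and 0.935 in WT replicates 5 and 3, against 1.01 to 1.15 in the other libraries. For its paralogue Nr1d1 r was -0.32 (rho = -0.42, adjusted p = 0.49 and 0.33 by permutation).

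For Per2, r with the mitochondrial sum was 0.660 (adjusted permutation p = 0.066) and rho 0.830 (adjusted 0.024), and r was 0.689 without WT replicates 3 and 5. For Arntl r was 0.745 (adjusted permutation p = 0.066) and rho 0.152 (adjusted 0.73), and r fell to -0.17 without these libraries, so that it rested on them. Per3 (r = 0.699) and Cry1 (r = 0.694) came to 0.069 and 0.268 without them. With the mitochondrial sum as a covariate in the limma fit, the log2 fold change of Nr1d2 was 0.07, that of Per2 0.40, that of Bhlhe41 0.36 and that of Arntl -0.45, none past the threshold. Without WT replicates 3 and 5 these values were 0.09, 0.40, 0.35 and -0.42. The relation was looked at after the levels of these libraries had been seen, and the part of RNA quality in the levels was not tested.

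**Figure D4:**
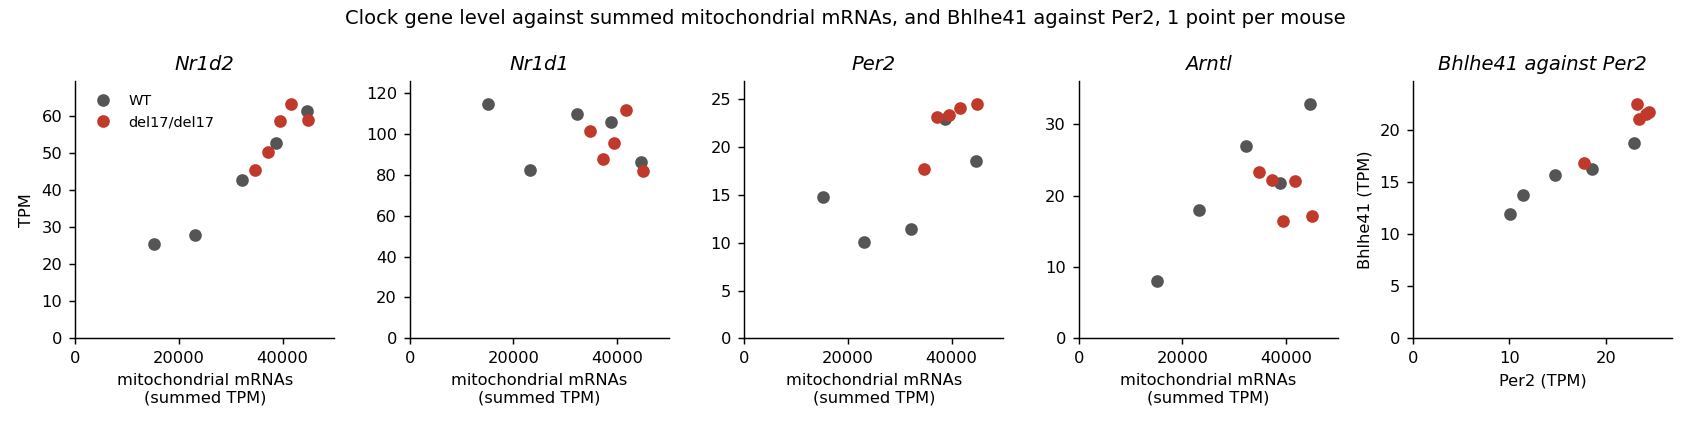
Level of Nr1d2, Nr1d1, Per2 and Arntl in TPM (first 4 panels) against the summed TPM of the mitochondrially encoded mRNAs, and level of Bhlhe41 against that of Per2 in TPM (last panel), with 1 point per mouse, WT in grey and Dscam del17/del17 in red. Over the 10 libraries Nr1d2 rises with the mitochondrial sum (r = 0.962) while Nr1d1 does not (r = -0.32), and Bhlhe41 rises with Per2 (r = 0.965). No r was computed within a genotype.

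The other genes of the clock were 29 in 4 lists. Of these, 28 were tested, 20 were above 0 and 8 below, with a median log2 fold change of 0.20, and 0 passed the threshold. Without WT replicate 5 the median was 0.07, with 19 above 0. At an unadjusted p under 0.05 there were 2, Rbm3 and Cirbp, both higher in the mutants, or 7.14% of the 28 against the 5.55% of all genes. Both are in the list of clock-controlled output genes. Rbm3, a cold-inducible RNA-binding protein that follows body temperature, had 57.1, 79.6, 69.7, 95.3 and 39.7 TPM in WT replicates 1 to 5 and 125.3, 138.5, 114.3, 88.9 and 87.6 TPM in the mutants. Of the mutants 3 stood above every WT mouse, and the log2 fold change was 0.74 (95% interval 0.25 to 1.22, limma adjusted p = 0.779, exact permutation p = 0.024). Its relative Cirbp ranged from 49.4 to 90.5 TPM in WT and from 66.8 to 119.4 TPM in mutant mice, with a log2 fold change of 0.42 (95% interval 0.00 to 0.85, exact permutation p = 0.10).

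Among the other activators, Rora, a ROR receptor that activates Arntl through the RRE and is abundant in Purkinje cells, was at 36.3, 41.8, 20.1, 25.0 and 2.71 TPM in WT replicates 1 to 5 and at 28.5 to 42.0 TPM in the mutants. WT replicate 5, the library with the lowest Arntl, was also far the lowest in Rora, and the log2 fold change of 0.996 had a 95% interval of -0.32 to 2.31. Arntl2, the paralogue of Arntl, ranged from 0.704 to 1.74 TPM in WT and from 1.46 to 1.89 TPM in mutant mice (log2 fold change 0.43, 95% interval -0.35 to 1.22). Clock, the partner of ARNTL, ranged from 5.01 to 15.3 TPM in WT and from 8.45 to 12.1 TPM in mutant mice (log2 fold change 0.13). Npas2 did not pass the filter, being between 0.096 and 0.173 TPM in 7 libraries and at 3.15, 1.09 and 3.05 TPM in WT replicate 4 and mutant replicates 4 and 5. The 4 activators tested were all above 0, with a median of 0.48, and all 4 had their lowest level in WT replicate 5. Without that library 3 were above 0, with a median of 0.24, and Rora was at 0.32, Arntl2 at 0.26 and Clock at -0.10.

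Among the other repressors and PAR bZIP factors, 4 were above 0 and 3 below, with a median of 0.01. Nfil3, a night-phase repressor that acts on the D-box against DBP, was at 20.9 to 29.3 TPM in WT against 13.4 to 25.6 TPM in mutant mice (log2 fold change -0.36, 95% interval -0.77 to 0.05, limma adjusted p = 0.779). Bhlhe40, the paralogue of Bhlhe41, ranged from 23.2 to 34.1 TPM in WT and from 27.3 to 40.2 TPM in mutant mice, with a log2 fold change of 0.26 (95% interval -0.07 to 0.60). Tef, the most abundant of these genes and like Dbp a PAR bZIP factor, was at 122.0 ± 13.4 TPM in WT and 122.3 ± 10.6 TPM in mutant mice (SD, n = 5 each).

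Of the 7 kinases and ubiquitin ligases that set the stability of the clock proteins, 5 were above 0, with a median of 0.26, which was 0.14 without WT replicate 5. Fbxw11, which takes phosphorylated PER to degradation, ranged from 11.5 to 46.5 TPM in WT and from 30.5 to 79.4 TPM in mutant mice (log2 fold change 0.92, 95% interval -0.06 to 1.89), and Csnk1d, a kinase of the PER proteins, was at 67.2 ± 8.71 and 67.0 ± 6.25 TPM (SD, n = 5 each). Of the 10 output genes 7 were above 0, with a median of 0.25 that was 0.04 without WT replicate 5, among them Klf9 with 101.0 ± 22.6 TPM in WT and 111.0 ± 11.1 TPM in mutant mice. Tspan4, a tetraspanin, ranged from 84.7 to 118.7 TPM in WT and from 66.9 to 93.9 TPM in mutant mice (log2 fold change -0.30, 95% interval -0.60 to 0.003).

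**Figure D5:**
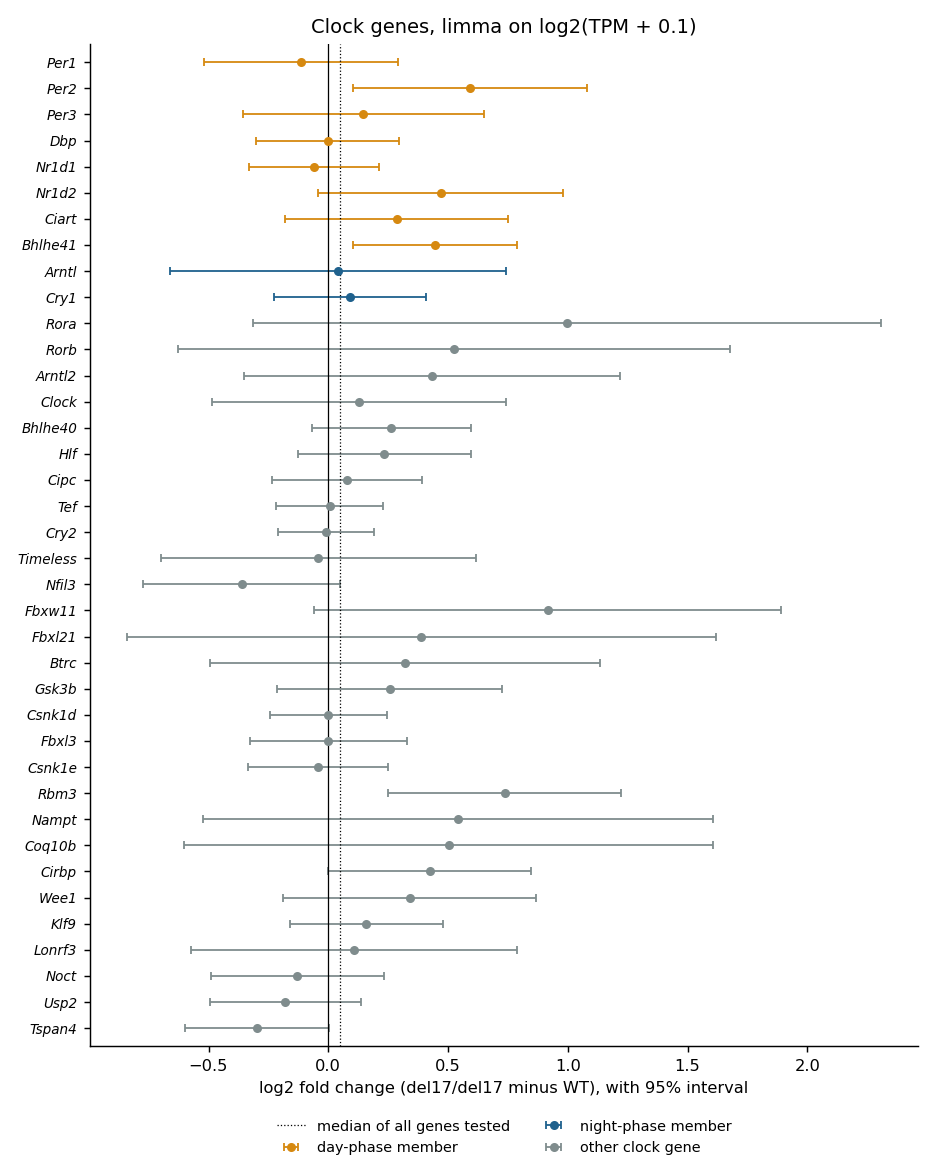
Log2 fold change of the 10 clock members (day-phase in orange, night-phase in blue) and the 28 other clock genes tested (grey, grouped by list), mutant minus WT on the log2(TPM + 0.1) scale, with 95% intervals from limma. The solid line is 0 and the dotted line the median of all genes tested (0.05). Intervals that exclude 0 belong to Per2, Bhlhe41 and Rbm3, with that of Cirbp starting at 0.00, and the Dbp and Nr1d1 points lie at or just below 0.

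Glucocorticoids act on Per1, Per2 and Klf9 and follow the day, and neuronal activity acts on Per1, so genes of both responses were set beside the members. Of 13 glucocorticoid-responsive genes tested, 12 were above 0, against 56.0% of all genes tested. Their median log2 fold change was 0.49, against 0.05 over all genes, and 0 were past the threshold. At an unadjusted p under 0.05, 2 were called higher and 0 lower, 15.4% against 5.55% of all genes. The smallest p was that of Tsc22d3 (also called Gilz), a glucocorticoid-induced leucine zipper protein, at 40.5 to 73.4 TPM in WT against 68.1 to 89.8 TPM in mutant mice (log2 fold change 0.47, 95% interval 0.13 to 0.81, limma adjusted p = 0.779, exact permutation p = 0.016). Mt1, a metallothionein and the most abundant of them, was at -0.06. Of 8 immediate early genes tested (Junb was not analysed here) 3 were above 0, with a median of -0.16, and Arc, an activity-induced synaptic protein, ranged from 7.35 to 10.9 TPM in WT and from 5.84 to 7.77 TPM in mutant mice (log2 fold change -0.41, 95% interval -0.82 to 0.005). Neither list was counted again without WT replicate 5, the library with the lowest Tsc22d3. Without that library the median of all genes tested was -0.04, against 0.05 with it. Whether either response had a part in the Per2 and Bhlhe41 levels was not tested.

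The libraries matched their labels as cerebellum, with Gabra6 of granule cells at 238 to 635 TPM and Pcp2 of Purkinje cells at 1380 to 2605 TPM over the 10 mice. Dscam, the mutated gene, was at 6.29 to 9.05 TPM in WT against 3.05 to 5.42 TPM in mutant mice, without overlap. Markers of the pineal gland, a rhythmic neighbour of the cerebellum, summed to at most 3.39 TPM, with Lhx4 at 0 in all libraries. Brainstem markers summed to 3.21 to 10.98 TPM in WT against 8.23 to 20.4 TPM in mutant libraries, with Hoxb5 at 0 in all libraries and the 4 tested of 7 all above 0, and their part in the levels of the clock genes was not tested. Among them Slc17a6, a glutamate transporter, had a log2 fold change of 1.52, and Dbh, of noradrenaline synthesis, was at a mean of 0.194 TPM in WT against 1.11 TPM in mutant mice, without overlap. Such a separation with the mutants higher was seen in 0.419% of all genes tested.

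Other cells of the tissue were followed by 6 markers each, of which 0 passed the threshold. Granule cell markers summed to 1472 to 2109 TPM in WT and to a narrower 1537 to 1708 TPM in mutant libraries, and 5 of the 6 were below 0, all but Gabra6. The cadherin Fat2 was at 124.8 to 155.2 TPM in WT against 97.6 to 116.5 TPM in mutant mice, without overlap (log2 fold change -0.36). At an unadjusted p under 0.05, 3 of the 6 granule cell markers were lower and 3 of the 4 brainstem markers higher. Of the 6 oligodendrocyte markers 2 were higher, and of the 6 of Bergmann glia and astrocytes 1, Hopx, was lower (log2 fold change -0.48). Over all genes tested, 2.29% were called higher and 3.26% lower. The genotypes were fully separated in 0.419% of all genes with the mutants higher and in 0.798% with the mutants lower. The 6 oligodendrocyte markers were all above 0, with sums of 5426 to 7969 TPM in WT against 6847 to 7992 TPM in mutant libraries. Mobp, of myelin, was at 676.5 ± 111 TPM in WT against 945.4 ± 45.9 TPM in mutant mice (SD, n = 5 each), without overlap (log2 fold change 0.50), while Mbp, the most abundant of that list, was at 0.01. Of the Purkinje cell markers 5 of 6 were above 0, Pvalb at 0.24, with Pcp2 the 1 below. Slc1a3, of Bergmann glia, was at 0.15 with 3 of 6 below 0, and of the choroid plexus markers 4 of 6 were above 0, with Kl at 0.35 and Ttr, the most abundant, at -0.08. Of the pineal markers, Aanat was at 1.21 and Gnb3 at -0.79, both below 3 TPM in every library. Of the mitochondrial mRNAs, all 13 of which were above 0, mt-Nd6 was at 1.27 and mt-Co1 at 0.62. Gsk3b, a kinase of several clock proteins, was at 0.26, and Dusp1, an immediate early gene, at 0.06. The part of these cell types in the levels of the clock genes was not tested. WT replicate 5 had the fewest genes at 0.5 TPM or above, 15623 against 17101 to 17763 in the other libraries, and gave the lowest value for Per3, Nr1d2 and Arntl.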

How the data were processed

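Per the labels and the methods, the authors prepared directional libraries from cerebellar RNA, aligned trimmed reads to GRCm38 (GRCm38.p5 in the submitters' processing notes) with HISAT2 and used StringTie to obtain TPM for each Ensembl gene; HTSeq and DESeq2, also named there, made tables that were not used here. The deposited values are TPM, which keep no read number, so the depth is unknown. The 10 members were matched through GENCODE M21. Genes at 0.5 TPM or more in 5 or more of 10 libraries (17168) were compared on log2(TPM + 0.1), which draws the changes of low genes toward 0, with limma (version 3.58.1, R version 4.3.3, variance trend, no covariates), Benjamini-Hochberg over all genes tested and a threshold of 0.05. Single values were also compared by exact permutation over all 252 divisions of the libraries. Correlations used 100000 permutations. Named outside the members are, for each clock list, the 2 genes of smallest p and the most abundant 1, for other lists 1 of each kind, genes whose annotation overlaps a member, the 5 most and 5 least like Dbp and Dscam. Clock, Npas2 and Tspan4 were named after their values were seen. The tests of all pairs of members were added after values had been seen, and 1 gene of the clock lists is not reported here. Members, lists and tests were chosen with earlier results of these data known. Alternatives were other added values (1 and 0.01 TPM), filters, scalings, covariates, array weights and left-out libraries, the last also for the contrasts within a library and the other clock genes after values had been seen.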

Additional observations from a re-analysis of the deposited data

Results flagged for a closer look

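The clock genes, Dscam and the 3 contrasts within a library gave 86 groups of 5 libraries. In 5 of the 86, 1 library stood farther from the rest than Dixon's limit for 5 values allows. Chance alone gives such a library in about 1 of every 20 groups, so 5 of 86 is near what chance gives. Mutant replicate 5 was low in Per2, at 17.72 TPM with the nearest mutant at 23.2 TPM, and in Bhlhe41, at 16.77 TPM with the nearest at 21.04 TPM. Per2 and Bhlhe41 were correlated over the libraries, so these are not independent of each other. Mutant replicate 5 was also the mutant library with a high Xist level (65.6 TPM). Npas2 in WT replicate 4 was at 3.152 TPM, with the nearest WT library at 0.1218 TPM. Mutant replicate 1 was high in Csnk1e, at 66.68 TPM with the nearest at 48.28 TPM, and in Klf9, at 130.7 TPM with the nearest at 108.2 TPM.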

How the results depend on the processing

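No clock member passed the threshold under any of the 24 alternatives. Per2 (log2 fold change 0.33 to 0.75), Nr1d2 (0.04 to 0.63), Ciart (0.15 to 0.39) and Bhlhe41 (0.32 to 0.52) stayed above 0 and Nr1d1 (-0.125 to -0.003) below 0 in all of them. The values near 0 changed sign. With quantile normalization Dbp was at 0.049 and Arntl at -0.063, and with array weights Arntl was at -0.269. With the mitochondrial sum as a covariate Per3 was at -0.111, Dbp at 0.046, Arntl at -0.446 and Cry1 at -0.056. Without WT replicates 3 and 5 together Per3 was at -0.120, Dbp at 0.006, Arntl at -0.421 and Cry1 at -0.063. Without WT replicate 5 and with the mitochondrial covariate, an alternative chosen after seeing the data, Per1 was at 0.015, Per3 at -0.111, Dbp at 0.055, Arntl at -0.388 and Cry1 at -0.070. Leaving out 1 library at a time, Dbp ran from -0.099 to 0.071 and Arntl from -0.278 to 0.229, and genes past the threshold from 0 to 1, the 1 without mutant replicate 4. The cause was not tested. Likewise, leaving out 1 library at a time after seeing the data, the day-phase minus night-phase difference between the genotypes ran from 0.045 to 0.322. Over all 24 alternatives, genes higher in the mutants at an unadjusted p under 0.05 ran from 204 to 1028, and lower ones from 358 to 885. With 1 library left out at a time they ran from 261 to 1028 and from 358 to 823. With the replicate number as a block, where the balanced design leaves the fold changes as they are, 0 genes passed. The limma adjusted p of Per2 was then 0.717 against 0.779. At an unadjusted p under 0.05, 586 genes were higher and 508 lower, against 394 and 559. The deviations of same-numbered libraries from their genotype means correlated at 0.0079 to 0.098, and 2 of 5 correlated best with their own number. Whether same-numbered mice share a litter or a preparation is not given by the labels. Depth cannot be read from TPM.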
